A study of Mus musculus with 2 samples.

Results

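The clustered histone genes are the replication-dependent histone genes that lie in groups in the mouse genome and carry symbols beginning Hist1h, Hist2h, Hist3h or Hist4h. Choosing every target with such a symbol gave 28 of the 23930 amplicon targets measured in cranial suture tissue. They comprise 6 linker histone H1 genes, 7 H2A, 6 H2B, 3 H3 and 6 H4 genes. The tissue was the coronal, sagittal and lambdoid sutures, the fibrous joints between the skull bones, of wildtype pups at postnatal day 3, and the labels carry no transgene, treatment or second genotype. There were 2 libraries of 1 group, library 1 and library 2, which share batch number 1. The labels name suture stem cells as the cell type, but the protocol describes whole dissected tissue without a sort. Nothing in the labels ties the libraries to separate pups, so differences between the libraries may be technical. P-values of the exact binomial test cover counting error only. Those of edgeR's exact test also count the spread between these 2 libraries.

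Core histones H2A, H2B, H3 and H4 form the protein spool of the nucleosome, and linker histone H1 sits on the DNA that enters and leaves it. The clustered genes supply these proteins when DNA is copied, and most lack introns. Their messenger RNAs usually end in a stem-loop that is bound by the protein made by Slbp, rather than in a poly(A) tail. Some members are known mainly from germ cells. All 28 members had 1 exon in the GENCODE M21 transcript used for each.

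The stem-loop was visible in the annotated transcripts and is shown because it marks the family independently of its symbols. The search used 16 letters on the transcript strand after the stop codon: GG, any 2 bases, CTTTT, any base, AG, any 2 bases and CC. They were found in 18 of the 21 members whose transcript runs 16 or more bases past the stop codon, starting 24 to 54 bases after it. Within 100 bases after the stop codon, 3 of 19701 other protein-coding genes (0.0152%) held the motif, among them the histone variant gene H2afx. In the following lines, from GENCODE M21 transcripts on GRCm38, capitals mark the 16 letters and lower case marks 5 flanking bases on each side.
Hist1h1e: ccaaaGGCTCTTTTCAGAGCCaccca
Hist1h1d: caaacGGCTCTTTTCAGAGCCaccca
Hist1h2ab: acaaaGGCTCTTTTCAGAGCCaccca
Hist1h2bb: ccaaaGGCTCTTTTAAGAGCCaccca
Hist1h3d: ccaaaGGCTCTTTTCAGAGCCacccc
Hist2h4: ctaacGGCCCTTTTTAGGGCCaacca
Hist4h4: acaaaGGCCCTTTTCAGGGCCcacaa
Hist1h4j: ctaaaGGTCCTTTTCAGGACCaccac
These sites lie at chr13:23621777-23621802, minus strand, at chr13:23555782-23555807, plus strand, at chr13:23751567-23751592, plus strand, at chr13:23747198-23747223, plus strand, at chr13:23576239-23576264, plus strand, at chr3:96262934-96262959, minus strand, at chr6:136803993-136804018, minus strand, and at chr13:21735432-21735457, plus strand. All 13 sites of H1, H2A, H2B and H3 genes began with GGCT and ended with AGCC. Of the 5 sites in H4 genes, 4 began with GGCC and ended with GGCC, and the site of Hist1h4j began with GGTC. Members with the motif occurred at every level, since Hist1h4j was nearly unread and Hist2h4 was among the highest. Of the members at a mean of 100 CPM (a gene's reads scaled to the library's total) or more, 12 of 13 with enough sequence held the motif, and of the others 6 of 8 did. In 13 of the 18 members with the motif the annotated transcript runs over 100 bases past it, by up to 4884 bases in Hist1h1d, and in the other 5, Hist1h2ab, Hist1h2bb, Hist1h3a, Hist1h2bm and Hist1h4h, it ends 11 to 46 bases past it. No match was found for Hist1h1a, Hist2h2be and Hist1h4a, which says only that these letters are not in the annotated sequence.

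The libraries held 5663344 reads (library 1) and 15802610 reads (library 2), recovered from the deposited CPM values. A count of 0 allows up to 3 reads, or 0.530 CPM in library 1 and 0.190 CPM in library 2. Intervals and limits cover counting error only, because the labels name no molecular identifiers. Each target is read through a single amplicon, so no length scaling applies, and because amplicons differ in efficiency the levels of different genes are given per amplicon only. Suture mesenchyme markers reached 1 CPM in both libraries in 11 of 11 cases, with summed levels of 637 and 901 CPM in libraries 1 and 2, and osteoblast markers in 9 of 9, with 167055 and 172515 CPM, most of it from Col1a1. In the exact binomial test of the reads 2 osteoblast markers were higher in library 1 and 7 in library 2, 4 of them at least 2-fold. Of all targets averaging at least 10 CPM, 32.5% were higher in library 1 and 37.0% in library 2. Markers of other tissues differed too, with summed levels of 39216 and 11878 CPM for 6 skeletal muscle markers, 1457 and 4408 CPM for 6 chondrocyte markers, and 96.6 and 533 CPM for 6 olfactory neuron markers. Summed levels were 1590 and 1298 CPM for 6 erythroid markers, 1062 and 572 CPM for 7 neutrophil markers, and 90.8 and 86.4 CPM for 4 B lineage markers. Markers within a list did not always move together. Ltf, at 99.4 and 235 CPM in libraries 1 and 2, ran against the other neutrophil markers. Ebf1, at 46.1 and 66.1 CPM, ran against the B lineage markers Cd79b and Vpreb3, which were called higher in library 1. Pax5 had 8.30 and 5.57 CPM in libraries 1 and 2 and was not called. The part of these cell types in the histone values was not tested. In bulk tissue fewer cells of a type and less RNA per cell cannot be told apart.

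Clustered histone genes were among the more abundant transcripts of the newborn suture. Their share of all reads was 1.22% in library 1 and 1.36% in library 2, a summed level of 12941 CPM ± 981 (SD, n = 2). Of the 28 members 22 (78.6%) reached 1 CPM in both libraries, against 55.0% of all targets. A mean of 100 CPM or more was reached by 15 members (53.6%), against 6.82% of all targets. The remaining 13 members lay at means between 0.120 and 23.5 CPM, and no member fell between 23.5 and 142 CPM. That division at 100 CPM was chosen after the values were seen. Among the 2459 other targets whose coding sequence is a single exon, 18 (0.732%) reached a mean of 100 CPM. That set includes 239 targets of the Vmn1r, Tas2r, Taar, Krtap and Ifna families, known from other tissues, of which none averaged 10 CPM. The share therefore depends on which genes the set holds. The 5 highest members, Hist1h1e, Hist1h2bb, Hist1h2ak, Hist2h4 and Hist1h1d, took 54.5% of the clustered histone reads in library 1 and 58.4% in library 2.

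**Figure D1:**
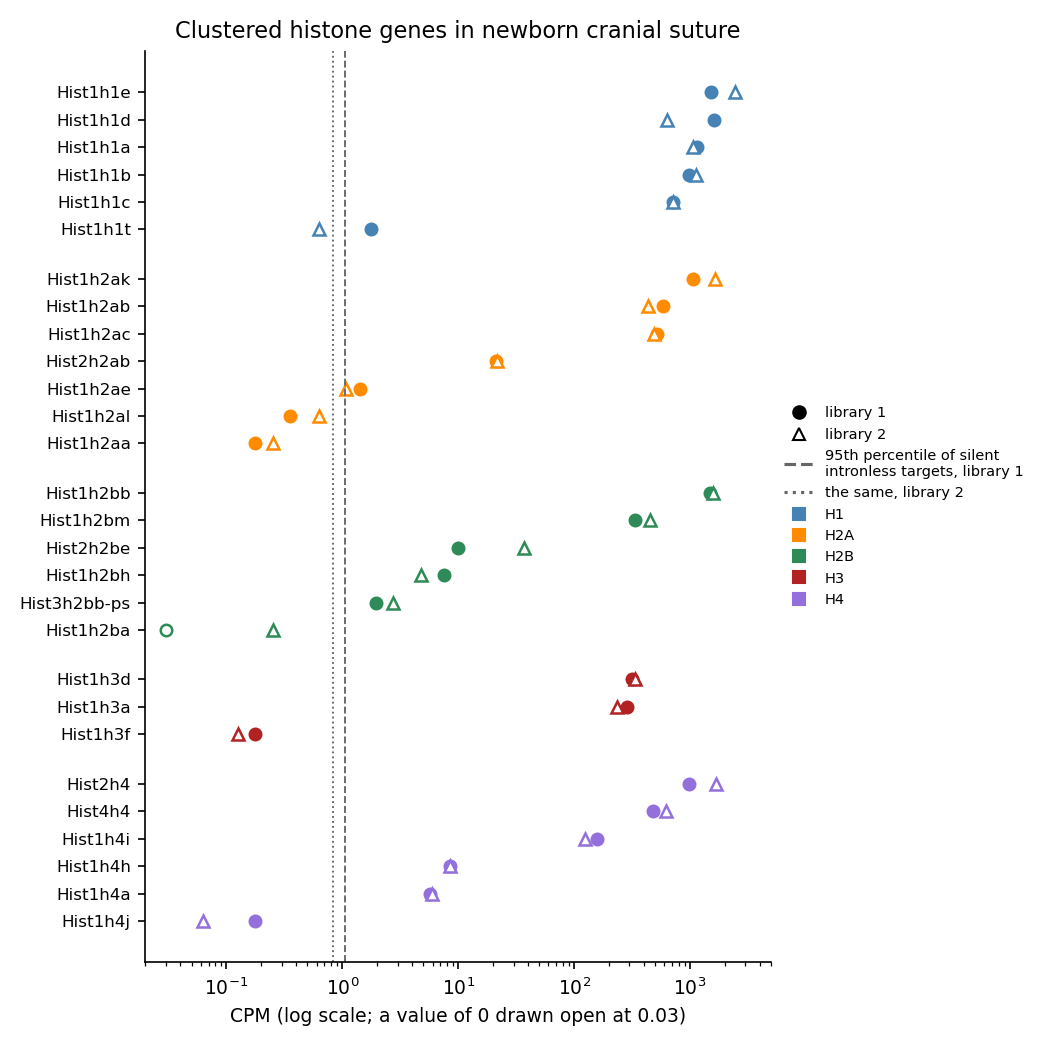
CPM of each of the 28 clustered histone genes in library 1 (filled circles) and library 2 (open triangles) on a log axis, by histone type. Vertical lines show the 95th percentile of 254 intronless targets known from other tissues (labelled silent). A value of 0 is drawn as an open circle at 0.03. The 15 abundant members sit above 100 CPM in both libraries, while Hist1h2al, Hist1h2aa, Hist1h2ba, Hist1h3f and Hist1h4j sit left of both lines.

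The 5 somatic H1 genes were all abundant. Hist1h1e, at chromosome 13 from 23620629 to 23622558, had the highest mean of the whole family, with 1511 CPM in library 1 and 2422 CPM in library 2. Hist1h1d, at chromosome 13 from 23553262 to 23560686, went the other way, with 1614 CPM in library 1 and 634 CPM in library 2. Hist1h1d was thus the leading H1 gene of library 1, with 27.1% of the H1 reads, and Hist1h1e that of library 2, with 40.7%. The remaining somatic genes were closer between the libraries. Hist1h1a had 1148 CPM in library 1 and 1066 CPM in library 2, and Hist1h1b had 971 and 1117 CPM. Hist1h1c, at 720 CPM in library 1 and 716 CPM in library 2, differed by less than counting error. Hist1h1t, the testis linker histone gene, had 1.77 CPM (10 reads) in library 1 and 0.633 CPM (10 reads) in library 2.

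H1 promoters are known for an H1 box, a CCAAT box and a TATA box set in sequence towards the gene. The letters searched were AAACACA for the H1 box. The CCAAT box was searched by its own letters, and the TATA box as TATAAA. The following RefSeq windows (GRCm38.p6) hold the 150 bases before the annotated start of the leading H1 genes of each library and of the nearly unread testis gene. Matches to the 3 sets of letters and to the octamer ATTTGCAT on either strand are in capitals.
Hist1h1e: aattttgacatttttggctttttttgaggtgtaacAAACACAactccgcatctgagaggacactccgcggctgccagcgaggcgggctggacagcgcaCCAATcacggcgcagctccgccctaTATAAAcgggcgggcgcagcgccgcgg
Hist1h1d: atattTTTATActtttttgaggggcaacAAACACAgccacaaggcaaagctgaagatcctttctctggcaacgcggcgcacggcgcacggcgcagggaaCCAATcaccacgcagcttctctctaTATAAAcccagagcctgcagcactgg
Hist1h1t: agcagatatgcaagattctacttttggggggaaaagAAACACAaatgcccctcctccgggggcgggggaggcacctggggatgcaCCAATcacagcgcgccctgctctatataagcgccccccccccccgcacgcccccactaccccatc
The windows lie at chr13:23622559-23622708, minus strand, at chr13:23554882-23555031, plus strand, and at chr13:23695661-23695810, plus strand. Hist1h1e and Hist1h1d held all 3 H1 promoter elements in the same order, and the Hist1h1d window holds a further TATA match on the opposite strand near its far end. The RefSeq start of Hist1h1d lies 1770 bases inside the longer GENCODE gene. Hist1h1t held the H1 box and the CCAAT box but not the letters TATAAA, and the same was true of the abundant Hist1h1c. The H1 box was present in 5 of 6 H1 windows, against 3.53% of 32851 RefSeq promoter windows of the same length, and the CCAAT box in 6 of 6, against 24.5%. TATAAA was present in 4 of 6 H1 windows, against 7.57%. No matches of different motifs overlapped in the windows of the members. Such matches describe the sequence and do not show binding, and the nearly unread Hist1h1t and the abundant Hist1h1b shared the H1 box.

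Nearly all H2A reads came from 3 genes. Hist1h2ak, at chromosome 13 from 21753435 to 21753827, had 1064 CPM in library 1 and 1647 CPM in library 2. Hist1h2ab had 587 CPM in library 1 and 437 CPM in library 2, and Hist1h2ac had 519 and 493 CPM. The order of the libraries therefore differed between these genes. Hist2h2ab was far lower and differed by less than counting error, at 21.4 CPM (95% Poisson interval 17.7 to 25.5) in library 1 and 21.8 CPM (19.5 to 24.2) in library 2. Hist1h2ae stood at 1.41 and 1.08 CPM in libraries 1 and 2. Hist1h2al, annotated as a processed pseudogene, had 2 reads in library 1 and 10 in library 2, and the testis gene Hist1h2aa had 1 and 4 reads.

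H2B reads came mainly from Hist1h2bb, at chromosome 13 from 23746734 to 23747241, with 1494 CPM in library 1 and 1589 CPM in library 2. Hist1h2bm had 333 CPM in library 1 and 453 CPM in library 2. H2A and H2B genes are often transcribed from shared divergent promoters, and the octamer ATTTGCAT is known from H2B promoters. The octamer was present in 4 of 6 H2A windows and 2 of 4 H2B windows and in none of the 12 windows of the other types, against 0.998% of all RefSeq windows. The leading H2B window and the window of Hist1h2ab, the next measured member along the chromosome, are shown for the octamer, with the same marking as the H1 windows.
Hist1h2bb: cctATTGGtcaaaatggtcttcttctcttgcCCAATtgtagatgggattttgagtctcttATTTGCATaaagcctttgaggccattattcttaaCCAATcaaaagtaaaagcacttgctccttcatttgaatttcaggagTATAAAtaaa
Hist1h2ab: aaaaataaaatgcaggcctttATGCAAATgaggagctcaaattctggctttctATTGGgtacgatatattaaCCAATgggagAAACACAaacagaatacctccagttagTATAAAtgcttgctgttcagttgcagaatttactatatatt
The windows lie at chr13:23746584-23746733, plus strand, and at chr13:23750938-23751087, plus strand. The H2A members Hist1h2ae and Hist1h2aa also held the octamer and were nearly unread, so members with the motif spanned the whole range of levels. Over all types the CCAAT box was present in 18 of 22 windows and TATAAA in 13 of 22, and H4 genes held each in 1 of 5 windows. Among the 13 abundant members with a window 11 held the CCAAT box and 9 held TATAAA, and among the 9 others 7 and 4 did. RefSeq windows were matched for 22 members, and Hist1h2al, Hist2h2be, Hist3h2bb-ps, Hist1h3a, Hist1h3f and Hist2h4 had no entry.

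The H2B variant gene Hist2h2be, known in mouse for its expression in olfactory sensory neurons, differed more between the libraries than any other member at a mean of 10 CPM or more. It lies on chromosome 3 from 96221119 to 96223738, and it had 9.89 CPM (56 reads, 95% Poisson interval 7.47 to 12.8) in library 1 and 37.1 CPM (586 reads, 34.1 to 40.2) in library 2. Its CPM was 3.75-fold as high in library 2 (adjusted p = 5.43e-28, exact binomial test between the libraries). Olfactory neuron markers were also higher in library 2. All 6 were called so in the same exact test, against 20.0% of all targets. At a mean of 10 CPM or more all 5 were, against 37.0% of all targets at that level. Adcy3 had 72.9 and 145 CPM in libraries 1 and 2, Gnal 9.01 and 70.5 CPM and Omp 11.1 and 247 CPM. None of the 6 was at 0 in either library. By edgeR's exact test, which also counts the spread between the libraries, 2 of the 6 were called and Hist2h2be was not. The median of the 6 on the log2 scale was -3.39 (library 1 minus library 2), and Hist2h2be stood at -1.81. The direction was not particular to olfactory neuron markers. At a mean of 10 CPM or more, 6 of 6 chondrocyte, 7 of 9 osteoblast and 8 of 11 suture mesenchyme markers were also called higher in library 2. Skeletal muscle (6 of 6), erythroid (4 of 4) and neutrophil markers (5 of 6) were called higher in library 1. The part of olfactory tissue in the Hist2h2be value was not tested.

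The other H2B members were low. Hist1h2bh had 7.59 CPM in library 1 and 4.75 CPM in library 2. Hist3h2bb-ps, the only member of the Hist3 cluster measured and annotated as a processed pseudogene, had 1.94 and 2.72 CPM in libraries 1 and 2. The testis gene Hist1h2ba had no read in library 1 and 4 reads (0.253 CPM) in library 2.

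H3 was represented by 3 genes. Hist1h3d had 317 CPM in library 1 and 337 CPM in library 2, and Hist1h3a had 285 and 235 CPM. Hist1h3f, with 1 read in library 1 and 2 reads in library 2, was nearly unread. Hist1h3a was the only H3 member called different between the libraries (adjusted p = 1.52e-09, exact binomial test), and Hist1h3d was not called (adjusted p = 0.0670, same exact test).

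H4 reads came from the Hist1, Hist2 and Hist4 clusters. Hist2h4, on chromosome 3 from 96261682 to 96263311, led with 987 CPM in library 1 and 1665 CPM in library 2. Hist4h4, the only gene annotated under the Hist4 name, on chromosome 6 from 136801553 to 136804415, had 482 CPM in library 1 and 616 CPM in library 2. Hist1h4i of the Hist1 cluster had 159 and 125 CPM in libraries 1 and 2. Both genes outside Hist1 were thus higher in library 2 and Hist1h4i was higher in library 1. Hist1h4h had 8.48 CPM in library 1 and 8.42 CPM in library 2, and Hist1h4a had 5.65 and 5.95 CPM. Hist1h4j had 1 read in each library.

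Summed by type, H1 stood at 5965 CPM in library 1 and 5956 CPM in library 2, H2A at 2193 and 2601 CPM, H2B at 1846 and 2087 CPM, H3 at 602 and 572 CPM, and H4 at 1642 and 2420 CPM. H1 held 48.7% of the clustered histone reads in library 1 and 43.7% in library 2. These sums depend on which genes were measured. The panel targets used here include all 6 annotated H1 genes of the clusters but 22 of 64 core histone genes, namely 7 of 20 for H2A, 6 of 19 for H2B, 3 of 12 for H3 and 6 of 13 for H4. The order of the types is therefore that of the measured amplicons and not of the proteins. Of the differences between the libraries, the H4 sum was the largest (1.47-fold, library 2 over library 1), while the H1 sums differed by less than 1% although Hist1h1d and Hist1h1e moved in opposite directions.

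**Figure D2:**
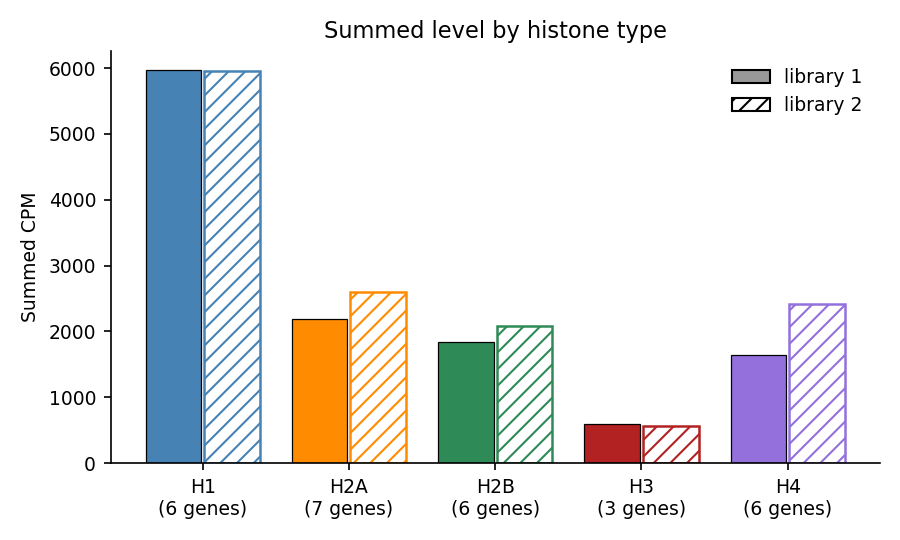
Summed CPM of the measured genes of each histone type in library 1 (filled bars) and library 2 (hatched bars), with the number of genes under each type. H1 stands near 5960 CPM in both libraries, and H4 at 1642 and 2420 CPM in libraries 1 and 2.

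By cluster, 23 members belong to Hist1 on chromosome 13, 3 to Hist2 on chromosome 3, 1 to Hist3 on chromosome 11 and 1 to Hist4 on chromosome 6. Hist1 held 87.7% of the clustered histone reads in library 1 and 82.8% in library 2. Hist2 held 8.31% and 12.6%, and nearly all of it came from Hist2h4, since Hist2h2ab and Hist2h2be averaged 21.6 and 23.5 CPM. Within Hist1 the members fell into 2 blocks and a lone pseudogene, Hist1h2al, far along the chromosome. The first block holds 5 members over 319 kb, of which 4 averaged 100 CPM or more, and the second holds 17 members over 404 kb, of which 9 did. Abundant and nearly unread members were interspersed in both blocks. Each level rests on 1 amplicon, and the part of amplicon efficiency or shared sequence in the low values was not tested. Hist1h4j, at a mean of 0.120 CPM, lies between Hist1h2bm (393 CPM) and Hist1h2ak (1355 CPM), and Hist1h3f (0.152 CPM) starts 9.21 kb before Hist1h1d (1124 CPM).

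**Figure D3:**
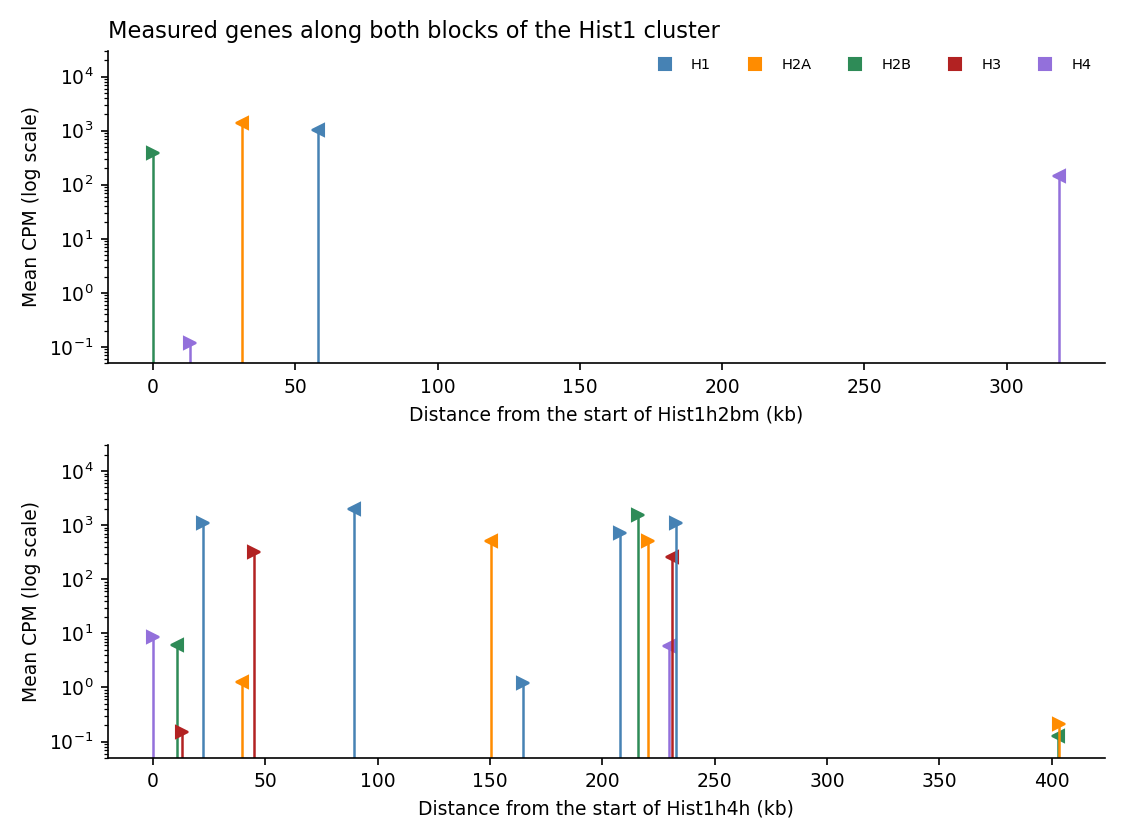
Mean CPM of both libraries (log axis) for the measured members along both blocks of the Hist1 cluster, against distance in kb from the start of the first member, with colours for histone type and arrowheads for the strand. The nearly unread Hist1h4j stands between Hist1h2bm and Hist1h2ak, both above 100 CPM, and the testis pair Hist1h2ba and Hist1h2aa stands alone at the right end of the second block.

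Because reads from an intronless amplicon can also come from genomic DNA, the members were set beside intronless genes known from other tissues. These were 254 targets of the Vmn1r, Tas2r, Taar, Krtap and Ifna families, of which 239 (94.1%) had a single coding exon in every annotated transcript. They averaged 0.333 CPM in library 1 and 0.256 CPM in library 2, their 95th percentiles were 1.06 and 0.823 CPM, and their highest values were 1.77 and 2.215 CPM. Families with several exons (117 targets of Vmn2r, Cyp2c, Cyp4a and Klk1b) averaged 0.0845 and 0.0551 CPM in libraries 1 and 2. Hist1h2aa, Hist1h2al, Hist1h2ba, Hist1h3f and Hist1h4j were at or below the 95th percentile of the intronless targets in both libraries, and Hist1h1t was in library 2. Reads of these 5 members were not detectable above that background. Hist1h1t passed the 95th percentile in library 1 only. Its 1.77 CPM there (95% Poisson interval 0.847 to 3.25) equalled the highest value of the intronless targets, so it was not clearly above them. The part of genomic DNA in these values was not tested. Olfactory receptor targets, kept apart because olfactory neuron markers were read here, averaged 0.325 CPM in library 1 and 0.350 CPM in library 2. All 15 abundant members lay at least 2 orders of magnitude above the averages of the intronless and several-exon families. Subtracting the average of the intronless families left the summed histone level at 12933 CPM.

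The levels of the members followed each other closely between the libraries. Over the 28 members Pearson's r of log2(CPM + 1) was 0.991 and Spearman's rho 0.969, against 0.962 and 0.944 over all targets, where genes are not independent replicates and both values share the scaling to library totals. In the exact two-sided binomial test of the reads, with Benjamini-Hochberg adjustment over all 23930 targets, 6 members were higher in library 1 and 8 in library 2, and 14 were not called. Thus 14 of 28 members were called, against 37.0% of all targets (17.1% higher in library 1 and 20.0% in library 2). Among targets averaging at least 10 CPM, 13 of 17 members were called, 5 higher in library 1 and 8 in library 2, against 69.5% of all such targets, 32.5% higher in library 1 and 37.0% in library 2. A share of calls this near to that of other targets at the same level is not a result about the histone genes. For the 23 members averaging at least 1 CPM the median log2 difference (library 1 minus library 2) was -0.026, against -0.071 over all targets at that level. At a mean of 10 CPM or more it was -0.088 for the 17 members and -0.050 for all targets, so the order of both medians depended on the level chosen. The test covers counting error of these 2 libraries and does not compare conditions.

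The members called higher in library 1 were Hist1h1d, Hist1h1a, Hist1h2ab, Hist1h2bh, Hist1h3a and Hist1h4i. Those called higher in library 2 were Hist1h1e, Hist1h1b, Hist1h2ak, Hist1h2bb, Hist1h2bm, Hist2h2be, Hist2h4 and Hist4h4. Most of these differences were small. Of the 14 called members, 2 differed at least 2-fold, Hist1h1d (2.55-fold, library 1 over library 2) and Hist2h2be. At a mean of 10 CPM or more, 2 of 17 members were called with such a difference, against 16.5% of all targets. When the spread between the libraries over all targets was taken into account, with edgeR's exact test and a dispersion estimated from both libraries as 1 group, no member was called (0 of 28). That test called 79 of 23930 targets (0.330%), and at an unadjusted p under 0.05 it found 760 targets and 1 member, Hist2h2be (unadjusted p = 0.0283). For Hist1h1d the unadjusted p in that exact test was 0.0831.

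**Figure D4:**
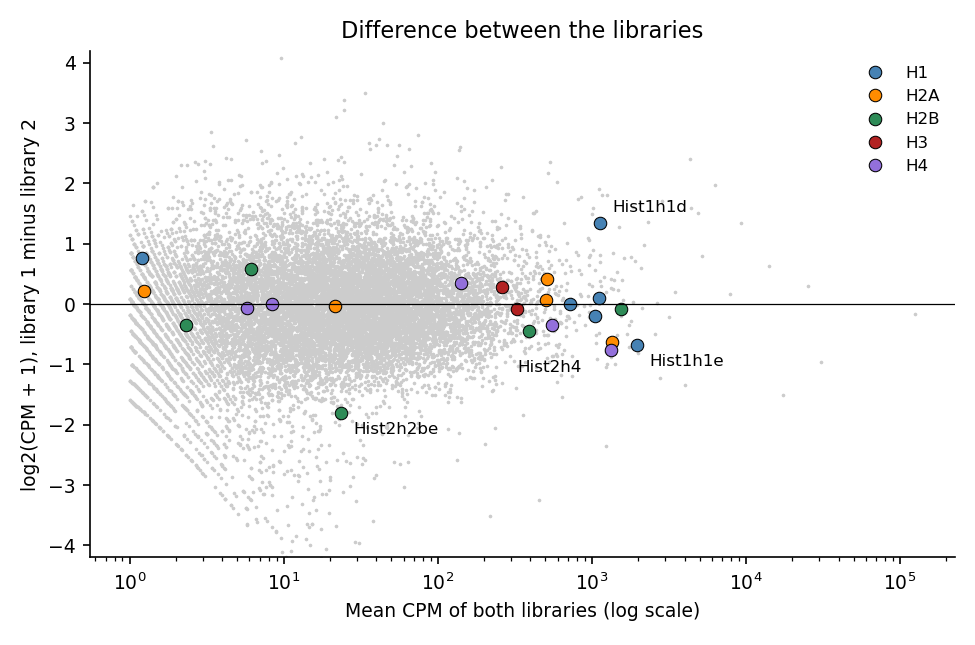
Difference between the libraries, log2(CPM + 1) in library 1 minus library 2, against the mean CPM of both libraries (log axis), for targets at a mean of 1 CPM or more (grey; 38 of 14097 lie beyond the vertical axis) and for clustered histone genes (coloured by type). Most histone genes lie within the grey cloud near 0, with Hist1h1d at 1.35 and Hist2h2be at -1.81.

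Genes that work with the clustered histones were read through amplicons of their own, and calls among them are set beside the 69.5% of all targets averaging at least 10 CPM that the exact binomial test called (32.5% higher in library 1 and 37.0% in library 2). edgeR's exact test called none of the mRNA processing, S phase, mitosis, chaperone and replication-independent genes measured, and at an unadjusted p under 0.05 it found Slbp alone among them (unadjusted p = 0.0465, edgeR's exact test). Among 16 genes of histone mRNA transcription and processing, 15 reached 1 CPM in both libraries, led by Sympk, a scaffold of the cleavage machinery, with 260 CPM in library 1 and 327 CPM in library 2. Srrt, an RNA cap-associated factor, followed at 93.6 and 129 CPM in libraries 1 and 2 and Cdk2, a kinase of S phase entry, at 107 and 71.9 CPM in libraries 1 and 2. Slbp, which codes for the stem-loop binding protein, had 57.0 CPM in library 1 and 19.7 CPM in library 2 (2.89-fold, library 1 over library 2; adjusted p = 8.94e-38, exact binomial test). In this list 6 genes were higher in library 1, 4 in library 2 and 6 uncalled, at a median difference of -0.13 on the log2 scale. At a mean of 10 CPM or more 9 of 12 were called.

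Among 29 genes of S phase, when histone genes are known to be transcribed, 27 reached 1 CPM in both libraries, led by the replication helicase genes Mcm7 (168 and 115 CPM in libraries 1 and 2), Mcm6 (124 and 100.4 CPM), and by Rrm2, a subunit of the enzyme that makes deoxynucleotides (129 and 82.7 CPM). Summed, they stood at 1200 CPM in library 1 and 946 CPM in library 2, whereas the clustered histone genes stood at 12248 and 13635 CPM. In the exact binomial test library 1 led for 12 S phase genes, Slbp again among them, library 2 led for 3, and 14 were uncalled, at a median difference of 0.21 on the log2 scale. At a mean of 10 CPM or more 13 of 20 were called, 11 higher in library 1 and 2 in library 2. Of all targets at that level 69.5% were called, 32.5% higher in library 1 and 37.0% in library 2. Of 19 genes of G2 and mitosis, all reached 1 CPM in both libraries, led by Ube2c, a ubiquitin enzyme of mitotic exit (100.1 and 122 CPM in libraries 1 and 2), the cyclin gene Ccna2 (129 and 79.9 CPM) and the survivin gene Birc5 (113 and 68.8 CPM). There, 9 were higher in library 1, 4 in library 2 and 6 uncalled, at a median difference of 0.43, and at a mean of 10 CPM or more 12 of 16 were called, 8 higher in library 1 and 4 in library 2.

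All 12 histone chaperone and deposition genes measured reached 1 CPM in both libraries. The highest were Hjurp, the chaperone of the centromeric histone, at 168 and 221 CPM in libraries 1 and 2, the histone-binding protein gene Rbbp4 at 193 and 182 CPM, and Ubn1, of the HIRA complex, at 52.6 and 81.6 CPM. In this list 6 genes were higher in library 1, 2 in library 2 and 4 uncalled, at a median difference of 0.35. At a mean of 10 CPM or more 8 of 11 were called, against 69.5% of all such targets.

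Replication-independent histone genes lie outside the clusters, and 7 of the 11 on the list were measured. H1f0, the linker histone of resting and differentiating cells, was highest at 221 CPM in library 1 and 194 CPM in library 2. H2afy, the macroH2A gene, had 98.7 and 102 CPM and H2afx, whose protein marks DNA breaks, had 93.1 and 101 CPM. In the exact binomial test H1f0 was higher in library 1, H2afv was higher in library 2 (29.0 and 51.6 CPM in libraries 1 and 2) and 5 were uncalled. The median difference was -0.048. At a mean of 10 CPM or more 2 of 6 were called, against 69.5% of all such targets. The clustered genes exceeded these 7 in summed CPM 24.7-fold in library 1 and 27.4-fold in library 2. H2afz, H3f3a, H3f3b and H2afy2 were not analysed here, so these ratios hold for the amplicons measured.

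**Figure D5:**
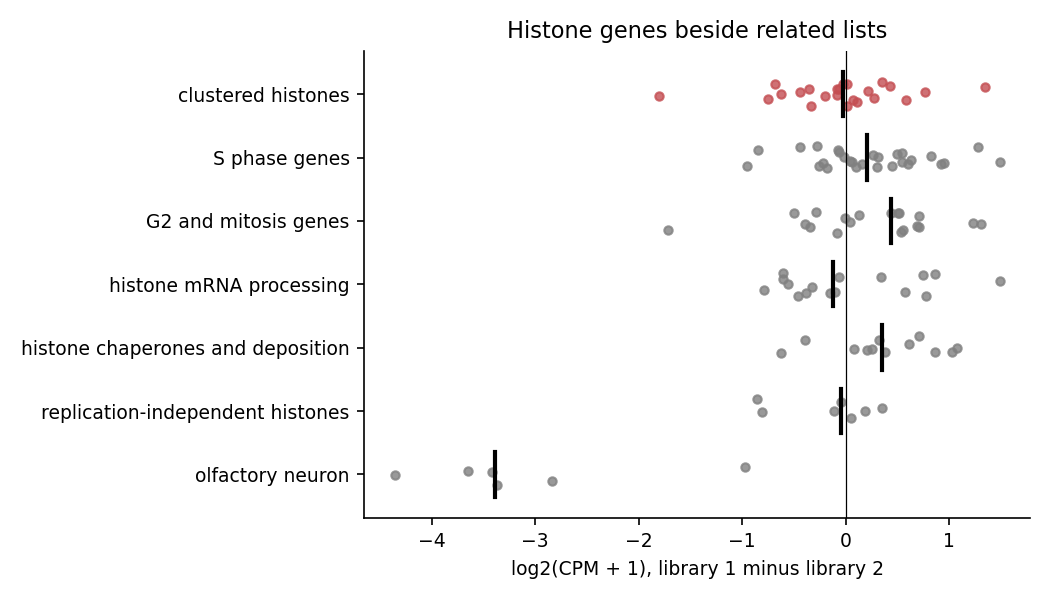
Differences between the libraries, log2(CPM + 1) in library 1 minus library 2, for genes averaging at least 1 CPM among the clustered histones (red) and 6 related lists (grey), with list medians as black bars. The clustered histones centre near 0 (median -0.026), the mitosis genes at 0.43, and the olfactory neuron markers at -3.39.

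Sequence shared between family members limits how firmly reads can be assigned to a gene. Of the 25-base stretches in each member's transcript, between 0.338% (Hist1h1t) and 86.0% (Hist1h2al) also occurred in a transcript of another gene, with a median of 34.7%. Among the 15 abundant members 5 shared over 50% of their stretches, with 74.0% for Hist1h2ak, 66.4% for Hist1h2ab, 62.9% for Hist1h3a, 62.6% for Hist1h2bm and 51.4% for Hist1h2bb. Their values are therefore uncertain. The share was 4.67% for Hist2h4, 4.85% for Hist1h1d and 4.39% for Hist2h2be. Their annotated transcripts of 1630, 7425 and 2620 bases are far longer than their coding sequences of 312, 666 and 381 bases. Over the coding sequence, identity to the most similar clustered gene of the same type was 91.0%, 83.9% and 87.9%. The low shares therefore do not show that reads of these 3 genes were assigned safely. The annotated transcript of Hist1h1e overlaps that of Hist1h2be on the same strand, and 36.2% of its stretches were shared. Among the 26 members with a coding sequence, identity to the most similar clustered gene of the same type ran from 64.5% (Hist1h1t) to 99.2% (Hist1h2ae). Amplicon positions were not used here, so which of them fall in shared sequence was not tested.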

How the data were processed

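Per the labels' protocols, total RNA of dissected sutures was extracted with an RNA kit and amplified with an Ion AmpliSeq panel that reads 1 short stretch of each gene of the mouse transcriptome. The authors deposited CPM (reads scaled to the library's total) for 23930 targets in 2 libraries. Per the submitters' processing notes the build was mm10, which is GRCm38, the build of GENCODE M21. No aligner or counting tool is named in the sources used here. Dividing each library's values by the value of 1 read gave whole reads for 100% of values (tolerance 0.01 read), and these reads were tested.

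Levels are CPM with SD over 2 libraries and exact 95% Poisson intervals. Differences are log2(CPM + 1), library 1 minus library 2, with a pseudocount of 1 CPM, which understates changes of low genes. The libraries were compared with an exact two-sided binomial test (scipy 1.17.1), Benjamini-Hochberg adjusted over all targets at a threshold of 0.05, and with edgeR 4.0.16 as an alternative. With 1 group no test between conditions was possible.

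Stem-loops and promoter letters were searched in GENCODE transcripts and RefSeq windows, and coding sequences were aligned with Biopython 1.88. Members and lists were chosen with earlier results of these data known. The rule for named genes took the highest 3 and the lowest member of each type, the largest library differences, the members outside Hist1, the testis members and the 3 highest genes of each list. The other members, Slbp and H2afv were added after their values were seen.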

Additional observations from a re-analysis of the deposited data

How the results depend on the processing

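Counts of histone genes called between the libraries kept within 1.5 times of the reported 6 and 8 under median ratio scaling, totals without the 10 highest targets, and adjustment over targets at a mean of 1 CPM or more. With a 2-fold minimum 1 member was higher in library 1 and 1 in library 2, because the called differences are mostly small. With edgeR's exact test and the dispersion of both libraries as 1 group, 0 and 0 members were called (1 member at an unadjusted p under 0.05), because that test counts the spread between libraries as error. The median difference of -0.026 was 0.0047 under median ratio scaling. That scaling removes a median shift of -0.032 (log2) over the 8278 targets at 10 CPM or more in both libraries. The median difference of the members was -0.088 over members averaging at least 10 CPM and -0.045 without a filter. With totals without the 10 highest targets it was -0.053, and it kept its sign with a pseudocount of 0.5 or 5 CPM.

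The summed level of 12941 CPM was 17189 CPM with totals that leave out the 10 highest targets, and 10975 CPM without Hist1h1e. Leaving out each library in turn gave 12248 to 13635 CPM, and 22 to 23 detected members. At a limit of 10 CPM 16 members were detected.

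No paired analysis was possible because there is 1 group. Leaving out a library leaves no comparison between libraries. Depth limits the members with few reads: 1 read in library 1 is 0.177 CPM.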

Other observations

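Neighbouring members showed levels far apart. Hist1h4a, Hist1h3a and Hist1h1a lie within 3.715 kb of each other in the second block of the Hist1 cluster, and averaged 5.80, 260 and 1107 CPM. Hist1h2bb and Hist1h2ab, whose starts are 4.39 kb apart on the same strand, averaged 1542 and 512 CPM. The testis genes Hist1h2ba and Hist1h2aa lie head to head, with overlapping upstream windows, and averaged 0.127 and 0.215 CPM. In the Hist2 cluster Hist2h2ab and Hist2h2be have starts 1.25 kb apart. Hist2h2ab had 21.4 CPM in library 1 and 21.8 CPM in library 2, while Hist2h2be had 9.89 and 37.1 CPM, so the larger value of Hist2h2be in library 2 was not shared by its neighbour. Each level rests on 1 amplicon, and the part of amplicon efficiency in these differences was not tested.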
